A study of Mus musculus with 8 samples.

Results

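The 10 transcription factor genes of the Purkinje cell lineage studied here were followed in maps of acetylated histone H3 lysine 9 (H3K9ac) in mouse cerebellum: Rora, Lhx1, Lhx5, Foxp2, Foxp4, Ptf1a, Skor2, Ebf1, Ebf2 and Ebf3. They were taken by name, 10 of 21887 protein-coding genes, and every deposited peak that overlapped one of them or lay within 10 kb of it was counted. Tissue came from C57BL/6 mice aged 9 weeks. The 4 libraries called 266Q came from heterozygous knock-in mice, in which 1 Atxn7 allele carries an expanded run of 266 glutamines, a model of spinocerebellar ataxia type 7 described as symptomatic. The 4 called WT came from wild type littermates. No other allele or treatment is labelled. The 266Q allele is present in every cell that uses Atxn7, and the whole cerebellum was used, so a mark in Purkinje cells is diluted by all other cells. In such tissue, fewer cells carrying the mark and less of the mark per cell cannot be told apart. Nothing in the labels says that the libraries came from separate animals, so the p-values measure only the spread between libraries, which may be technical.

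H3K9ac is laid down at active promoters, in part by the SAGA complex, of which ataxin-7, the product of Atxn7, is a subunit. Purkinje cells are the inhibitory output neurons of the cerebellar cortex. They descend from progenitors of the ventricular zone that express the basic helix-loop-helix factor Ptf1a. The LIM homeodomain factors Lhx1 and Lhx5 and the corepressor Skor2 act as these cells differentiate, the forkhead factors Foxp2 and Foxp4 and the EBF factors mark young and maturing cells, and the nuclear receptor RORα, encoded by Rora, is needed for their maturation and upkeep.

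The 8 lists differed in length far more by replicate number than by genotype. The lists of replicates 1 and 2 held 7735 to 11409 peaks with median widths of 1065 to 1246 bp, and those of replicates 3 and 4 held 1266 to 5571 peaks with median widths of 132 to 148 bp. Read depth is unknown, since the lists hold no counts. Of 10 granule cell markers, all 10 had a peak within 10 kb in replicates 1 and 2 of both genotypes. Of 10 Purkinje cell markers, 4 and 5 had one in 266Q replicates 1 and 2 and 3 and 4 in WT replicates 1 and 2. Among all protein-coding genes, 50.2% and 48.4% had such a peak in 266Q replicates 1 and 2. In WT replicates 1 and 2 it was 45.2% and 38.2%, so the Purkinje marker counts lay near these shares. The defining Purkinje markers Pcp2, Pcp4, Car8, Ppp1r17 and Pvalb had none in any of the 8 lists.

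Rora, Lhx1, Foxp4 and Ebf1 carried H3K9ac at their start in replicates 1 and 2 of both genotypes. Lhx5, Foxp2 and Ebf2 had peaks in scattered libraries, and Ptf1a, Skor2 and Ebf3 had none in any list. A RefSeq promoter (build GRCm38.p6) was used for 6 of the 10 genes, and these promoters are shown here to set the marked starts beside the unmarked ones. Each line is the 250 bases before the annotated transcript start, 5′ to 3′, with CpG dinucleotides in capitals. The promoters of the first 4 were overlapped by a peak and those of the last 2 were not. Their positions are chr9:68653536-68653785 on the plus strand for Rora, chr11:84525535-84525784 on the minus strand for Lhx1, chr17:47924633-47924882 on the minus strand for Foxp4, chr11:44617850-44618099 on the plus strand for Ebf1, chr2:19445413-19445662 on the plus strand for Ptf1a and chr7:137314446-137314695 on the minus strand for Ebf3.
Rora: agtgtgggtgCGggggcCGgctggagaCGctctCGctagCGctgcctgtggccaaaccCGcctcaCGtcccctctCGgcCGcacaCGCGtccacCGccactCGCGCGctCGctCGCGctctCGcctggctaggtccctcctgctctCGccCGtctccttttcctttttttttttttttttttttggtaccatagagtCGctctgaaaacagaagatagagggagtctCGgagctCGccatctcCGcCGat
Lhx1: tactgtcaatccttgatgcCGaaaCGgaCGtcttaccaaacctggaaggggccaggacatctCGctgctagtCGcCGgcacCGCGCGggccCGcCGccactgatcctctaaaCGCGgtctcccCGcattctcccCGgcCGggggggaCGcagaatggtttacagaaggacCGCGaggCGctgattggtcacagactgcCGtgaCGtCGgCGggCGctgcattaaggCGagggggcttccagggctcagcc
Foxp4: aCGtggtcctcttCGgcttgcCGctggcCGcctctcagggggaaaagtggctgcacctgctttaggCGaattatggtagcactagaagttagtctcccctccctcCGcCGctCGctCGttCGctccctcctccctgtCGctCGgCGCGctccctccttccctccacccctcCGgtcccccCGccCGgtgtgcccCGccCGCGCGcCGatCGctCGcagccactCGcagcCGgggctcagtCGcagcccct
Ebf1: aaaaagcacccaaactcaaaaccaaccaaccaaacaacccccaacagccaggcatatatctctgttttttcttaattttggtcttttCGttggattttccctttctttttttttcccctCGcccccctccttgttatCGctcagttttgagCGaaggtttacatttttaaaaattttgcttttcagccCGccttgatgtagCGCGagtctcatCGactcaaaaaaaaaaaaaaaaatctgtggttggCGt
Ptf1a: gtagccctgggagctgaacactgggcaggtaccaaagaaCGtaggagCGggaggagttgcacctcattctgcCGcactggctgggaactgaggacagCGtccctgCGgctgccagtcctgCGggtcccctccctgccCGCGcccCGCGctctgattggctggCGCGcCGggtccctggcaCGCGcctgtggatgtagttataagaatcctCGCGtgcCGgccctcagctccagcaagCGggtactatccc
Ebf3: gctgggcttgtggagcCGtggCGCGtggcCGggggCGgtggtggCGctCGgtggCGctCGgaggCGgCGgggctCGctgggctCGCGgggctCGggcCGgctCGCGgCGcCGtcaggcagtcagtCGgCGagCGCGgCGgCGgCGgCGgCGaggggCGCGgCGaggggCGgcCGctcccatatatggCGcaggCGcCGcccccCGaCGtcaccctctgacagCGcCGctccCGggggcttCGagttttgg

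Over the full 300 bases in the table, which add the 50 bases from the start onwards, CpG dinucleotides numbered 28 at Rora, 31 at Lhx1, 33 at Foxp4 and 9 at Ebf1. They numbered 23 at Ptf1a and 46 at Ebf3, neither of which had a peak. Across the 5051 promoters of the table with a peak in replicates 1 and 2 of both genotypes the median was 29 CpG, with quartiles of 21 and 37. Across the 22494 promoters with no peak in any list it was 4, with quartiles of 2 and 8. Rora, Lhx1 and Foxp4 thus lay inside the quartiles of marked promoters. The Ebf1 start was AT-rich, with a GC share of 36.7%, and marked all the same, while Ptf1a and Ebf3, with GC shares of 67.3% and 77.0%, were CpG-rich and unmarked. A second Ebf1 promoter in the table, with 17 CpG, was touched by no peak.

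The letters of these promoters were searched on both strands for 8 short motifs. Neither the nuclear receptor recognition core AGGTCA, nor the LIM homeodomain core TAATTA, nor the forkhead motif TGTTTAC, nor TATAAA was in any of the 7 promoter windows of these genes. Among all 32851 promoters these were found in 16.3%, 5.29%, 3.65% and 13.6%, in that order. The EBF palindrome core CCCNNGGG was found once, at Ebf3, and in 13.7% of all promoters. The E-box CANNTG was found at Foxp4 and at the second Ebf1 promoter, and in 72.3% of all. CCAAT was found at Rora, Lhx1 and Ptf1a, and in 37.4% of all, and the GC box GGGCGG at Foxp4 and Ebf3, and in 35.7% of all. Matches of different motifs may share bases, and a match is a description of the sequence only.

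**Figure D1:**
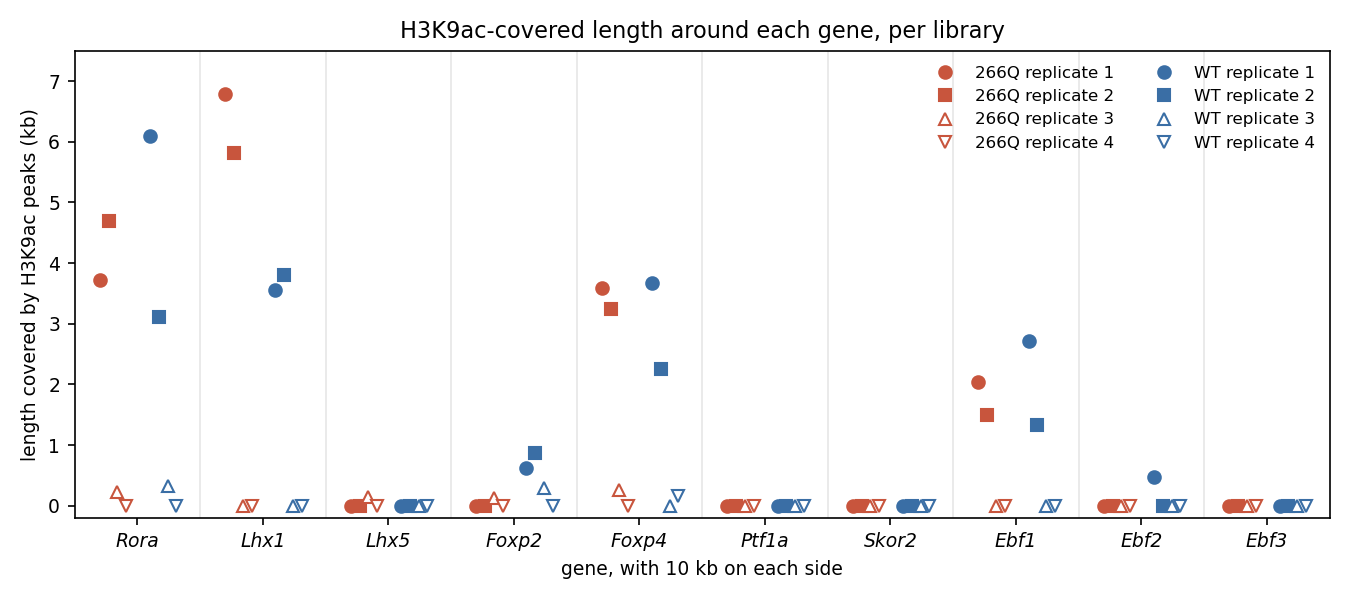
Length covered by H3K9ac peaks (y axis, kb) in the gene and 10 kb on each side, for each of the 10 genes (x axis) and each library, with 266Q on the left and WT on the right of each gene. Filled symbols are replicates 1 and 2, and open symbols replicates 3 and 4. Rora, Lhx1, Foxp4 and Ebf1 carry 1324 to 6787 bp in replicates 1 and 2 of both genotypes, and every value of replicates 3 and 4 is at or under 332 bp.

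The number of libraries with a peak was close in both genotypes for most of these genes. A peak was present somewhere for 7 of the 10: 1 (Lhx5) in more 266Q libraries, 2 (Foxp2 and Ebf2) in more WT libraries and 4 equally often. Over all 13046 genes tested, 44.6% were found in more 266Q and 15.1% in more WT libraries. A conditional exact test, which allows for the length of each list, called none of the 7 genes with a peak and 0 of 13046 genes (0% called) after Benjamini-Hochberg adjustment at 0.05. At an unadjusted p under 0.05 it had 88 genes (0.675%), Foxp2 among them, and Fisher's exact test had 2 and called 0. The smallest conditional exact p that any pattern could reach was 2.16e-05, so that no single gene could pass the adjustment alone.

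Covered length is the number of base pairs under peaks inside the gene and its 10 kb flanks. Compared over all 8 libraries by a two-sided exact permutation test, it called 0 of 13147 genes with any covered base (0% called), and 2 genes (0.0152%) had an unadjusted p under 0.05. With 4 libraries against 4 the smallest p is 0.0286, so that no single gene could pass the adjustment here either. Covered length was therefore also compared within replicates 1 and 2, with no test, since their peaks are of like median width, although WT replicate 2 covered less of the genome (14.5 and 14.4 Mb in 266Q, 14.3 and 9.09 Mb in WT). Of 12714 genes with a peak there, 32.2% had both 266Q values above both WT values, and 2.91% the reverse. Per megabase covered in the library, these shares were 17.5% and 12.6%. Of the 6 genes of this set with a peak there, 1 (Lhx1) was higher in 266Q without overlap, 1 (Foxp2) was higher in WT, and 4 overlapped. Per megabase covered, none was higher in 266Q and 4 (Rora, Foxp2, Foxp4 and Ebf1) were higher in WT. At Foxp4 this was nearly a tie, with 247.4 bp per Mb in WT replicate 2 and 247.1 in 266Q replicate 1. At Ebf1 the nearest values were 145.7 bp per Mb in WT replicate 2 and 141.1 in 266Q replicate 1. The Ebf1 start region alone overlapped on this scale. The Rora window included the start of the neighbouring gene Ice2. That region held 54.1 and 65.5 bp per Mb in 266Q replicates 1 and 2 and 94.6 and 101.1 in WT. Rora without it was not counted on this scale. With these 4 lists cut to equal length by score, 2 (Lhx1 and Foxp4) were higher in 266Q and none in WT, against 28.7% and 4.77% of 10921 genes. The mean of replicates 1 and 2 was higher in 266Q for 2 of the 6 (76% of all 12714 genes) and higher in WT for 4 (23.9% of all). The median difference was -242.5 bp over the 6 genes, against 362 bp over all.

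Rora encodes the nuclear receptor RORα, whose loss underlies the staggerer mouse (chromosome 9, 68653404 to 69388246, build mm10). Its window held 3726, 4693, 231 and 0 covered bp in 266Q replicates 1 to 4, and 6094, 3108, 332 and 0 bp in WT replicates 1 to 4. WT replicate 1 was the highest of all, and the genotypes overlapped. The means were 2162.5 ± 2398 bp in 266Q and 2383.5 ± 2839 bp in WT (SD, n = 4 each; exact permutation p = 0.914, adjusted p = 1.00).

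The peak at the Rora start was the most widely shared one near any of these genes, found in replicates 1, 2 and 3 of both genotypes. It covered 1628, 2046 and 231 bp in 266Q replicates 1 to 3, and 1547, 1322 and 193 bp in WT replicates 1 to 3. In replicates 1 and 2 both 266Q values were above both WT values, which was so for 35.3% of the 5484 merged regions held by these 4 lists, with the reverse in 4.8%. Per megabase covered in the library the genotypes overlapped, with 112 and 142 bp in 266Q and 109 and 145 bp in WT. The peak of 266Q replicate 1 outscored 71.7% of its own list and that of replicate 2 outscored 86.9%, against 83.3% and 81.7% in WT replicates 1 and 2. The region also overlapped the lncRNA gene Gm31325. RefSeq's Rora promoter had a peak in 6 of 8 libraries. Peaks of each list overlapped 27.5%, 25.4%, 3.17% and 0.167% of all promoters in 266Q replicates 1 to 4, and 22.1%, 18.7%, 1.29% and 0.289% in WT replicates 1 to 4.

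A second Rora region lay deep inside the gene, 635.6 to 637.6 kb from its start. It covered 1581 and 1251 bp in 266Q replicates 1 and 2, and 1663 and 1229 bp in WT replicates 1 and 2. The genotypes overlapped there. Per megabase covered in the library, the values were 109 and 86.7 bp in 266Q and 117 and 135 bp in WT, so both WT values were then higher. That held for 23% of the 5484 regions, with the reverse in 8.06%. The RefSeq promoters used here include 1 for Rora, at the lower-coordinate end of the gene, and none at this inner region. Whether a transcript starts at the inner region was not tested.

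The remaining Rora peaks were held by few libraries. A region at 350.1 to 350.6 kb was in WT replicates 1 and 3, with 539 and 139 bp, and in no 266Q list. Another 2 regions were in WT replicate 1 alone and 1 was in 266Q replicate 2 alone. The region in the downstream flank lay over the start of the neighbouring gene Ice2, a subunit of the little elongation complex, and was in replicates 1 and 2 of both genotypes. It covered 784 and 946 bp in 266Q and 1348 and 919 bp in WT.

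**Figure D2:**
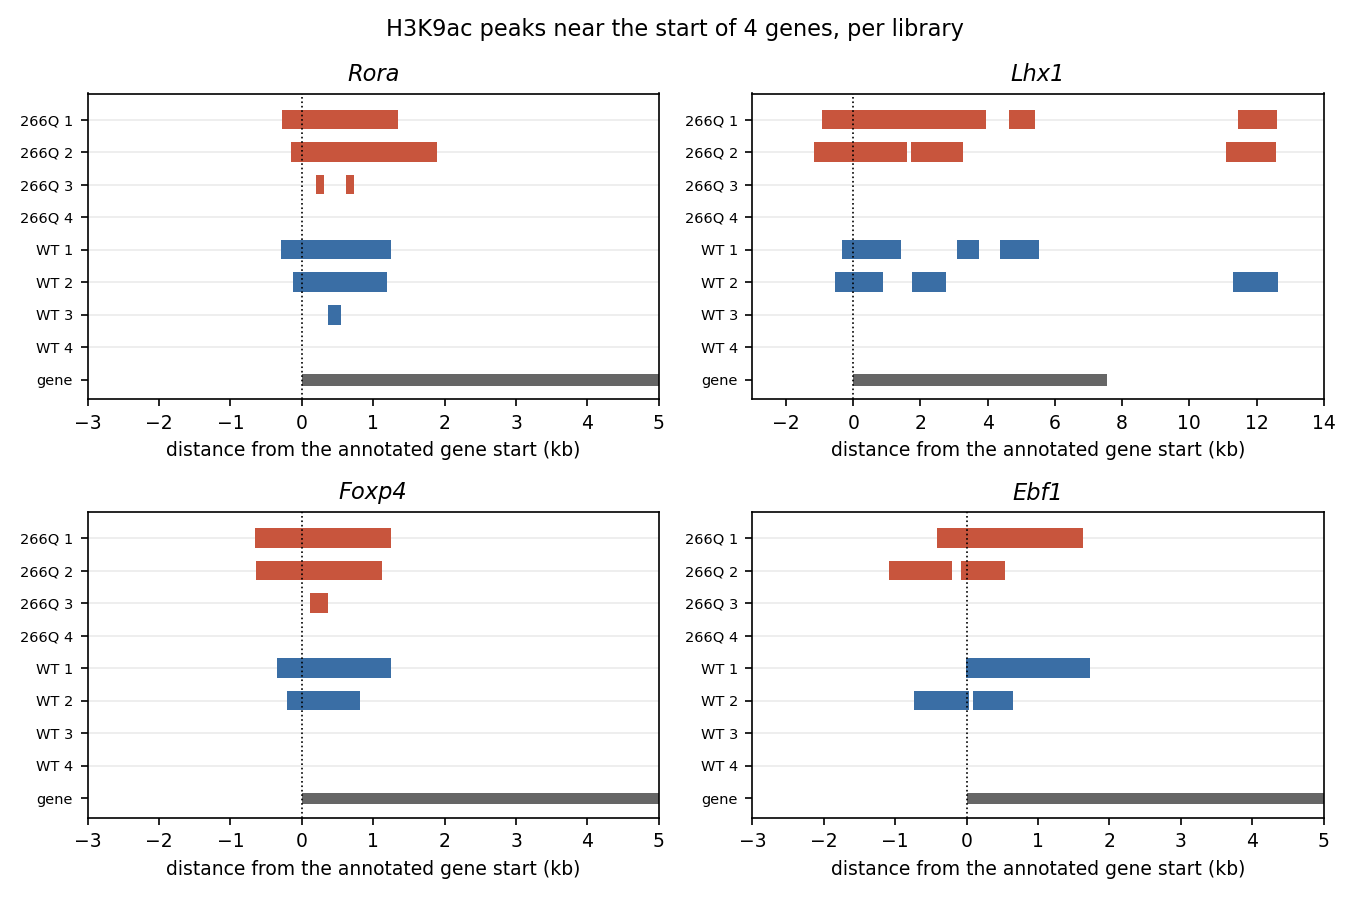
Peaks of each library (rows, 266Q above WT) around the starts of Rora, Lhx1, Foxp4 and Ebf1, by distance from the annotated gene start in kb (x axis, along transcription), with the gene as a grey bar. The Lhx1 start region reaches from 1.15 kb before to 3.96 kb after the start and is wider in both 266Q libraries of replicates 1 and 2 than in either WT library.

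Lhx1, a LIM homeodomain gene (chromosome 11, 84517975 to 84525534), had the widest H3K9ac region of the set. The window held 6787 and 5815 covered bp in 266Q replicates 1 and 2, and 3559 and 3798 bp in WT replicates 1 and 2. Replicates 3 and 4 of both genotypes had none. Over all libraries the means were 3150.5 ± 3659 bp in 266Q and 1839 ± 2126 bp in WT (SD, n = 4 each; exact permutation p = 0.657, adjusted p = 1.00). Within replicates 1 and 2 the ratio of means was 1.71, and 2 against 2 libraries cannot give a p below 0.333.

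Of the difference between these means, the region over the Lhx1 start gave 2185 bp, a flank region at the neighbouring gene Aatf 647.5 bp and an inner region -210.0 bp. At the start, peaks covered 4898 and 4312 bp in 266Q replicates 1 and 2, and 2391 and 2449 bp in WT replicates 1 and 2, a ratio of means of 1.90. Of the 5484 merged regions held by these 4 lists, 99.9% had a smaller difference and 98.5% a smaller ratio, and the median ratio of all was 1.14. Per megabase covered in the library the region held 338 and 299 bp in 266Q, against 168 and 269 bp in WT, so 266Q was still higher without overlap, as in 8.06% of regions. In 266Q replicate 1 it was 1 unbroken peak of 4898 bp. In 266Q replicate 2, WT replicate 1 and WT replicate 2 it was split in 2, and the gap between the peaks did not count as covered.

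WT replicate 2, with a list of 7735 peaks, and WT replicate 1, with 11409 peaks, had almost the same length there. The highest peak of the region outscored 77.9% and 80.6% of its list in 266Q replicates 1 and 2, and 83.9% and 59.2% in WT replicates 1 and 2. The region also overlapped the lncRNA gene Lhx1os. Inside Lhx1, a further region was in replicate 1 of both genotypes, with 748 bp in 266Q and 1168 bp in WT. One more, in the flank, lay over 1 end of the neighbouring gene Aatf, with 1141 and 1503 bp in 266Q replicates 1 and 2 and 0 and 1349 bp in WT replicates 1 and 2. Without it, the window held 5646 and 4312 bp in 266Q and 3559 and 2449 bp in WT. Counting peaks inside Lhx1 alone, with no flank, 266Q and WT replicates 1 and 2 overlapped.

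Lhx5, its close relative in the same cells (chromosome 5, 120431886 to 120441457), had 1 peak in all, of 148 bp in 266Q replicate 3. None of the 4 long lists held one. A single library of the short lists therefore carries the whole value, and the exact permutation p was 1.00.

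Foxp4, a forkhead factor (chromosome 17, 47867133 to 47924632), had covered lengths of 3584, 3249, 259 and 0 bp in 266Q replicates 1 to 4, and 3664, 2249, 0 and 161 bp in WT replicates 1 to 4. The genotypes overlapped. The means were 1773 ± 1906 bp in 266Q and 1518.5 ± 1759 bp in WT (SD, n = 4 each; exact permutation p = 0.8286, adjusted p = 1.00).

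At the Foxp4 start the peak covered 1899, 1765 and 259 bp in 266Q replicates 1 to 3, and 1599 and 1024 bp in WT replicates 1 and 2, with none in WT replicate 3. It outscored 80.1%, 86.7% and 83.3% of the list in 266Q replicates 1 to 3, and 59.3% and 63.2% in WT replicates 1 and 2. Ranks in lists of different length, here 5571 to 11409 peaks, describe a peak within its own list and cannot show a difference between genotypes. Per megabase covered in the library the values were 131 and 122 bp in 266Q replicates 1 and 2 and 112 and 113 bp in WT, without overlap, as by length. The ratio of means over replicates 1 and 2 was 1.40, and 83.4% of the 5484 regions had a smaller one.

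A second Foxp4 region, 45.2 to 47.0 kb from the start and so in the last part of the gene, was in replicates 1 and 2 of both genotypes. It covered 1685 and 1484 bp in 266Q and 1331 and 1225 bp in WT. Regions at 10.4 to 11.1 kb and at 18.1 to 18.2 kb were in WT replicate 1 and WT replicate 4 alone. The peak of WT replicate 4 scored low in its list, with 0.127% of peaks below it.

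**Figure D3:**
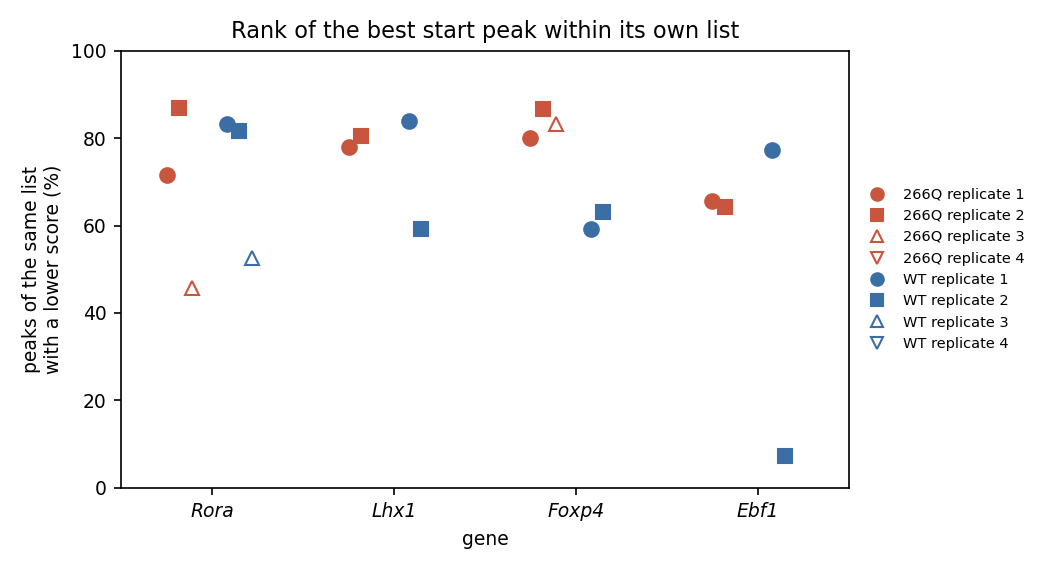
Share of peaks in the same list with a lower score (y axis, %) for the highest-scoring start peak of Rora, Lhx1, Foxp4 and Ebf1 (x axis), per library, with 266Q left of WT. Libraries without a start peak have no symbol. The lists differ in length, so a rank places a peak within its own list only. Most of the start peaks lie above 50% of their list, and the Ebf1 start peak of WT replicate 2, at 7.34%, lies near the bottom of its list.

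Foxp2, the relative of Foxp4 best known from Purkinje cells (chromosome 6, 14901349 to 15441977), had covered lengths of 0, 0, 126 and 0 bp in 266Q replicates 1 to 4, and 616, 876, 286 and 0 bp in WT replicates 1 to 4. WT replicates 1 to 3 were above every 266Q library. The means were 31.5 ± 63.0 bp in 266Q and 444.5 ± 382 bp in WT (SD, n = 4 each; exact permutation p = 0.143, adjusted p = 1.00). Peaks were in 1 266Q and 3 WT libraries (conditional exact p = 0.0206, adjusted p = 1.00).

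These Foxp2 peaks lay in different places. The peak of WT replicate 2, at chr6:14901150-14902025, spanned the lower-coordinate end of the gene, and that of WT replicate 1 lay 224 kb inside. Near 77 kb, a peak of 172 bp in WT replicate 3 met one of 126 bp in 266Q replicate 3, and this was the only Foxp2 region in 2 lists. None scored 100 or more, so with a stricter score of 100 Foxp2 had no peak in any list. Without WT replicate 3 the conditional exact p was 0.259, without 266Q replicate 1 it was 0.299 and without 266Q replicate 2 also 0.299. Without 266Q replicate 3 it was 0.00178, with Fisher's exact test 0.486, with the replicate number as a block 0.0720, within replicates 1 and 2 it was 0.0341 and within replicates 3 and 4 it was 1.00. The adjusted p was 1.00 in each of these.

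**Figure D4:**
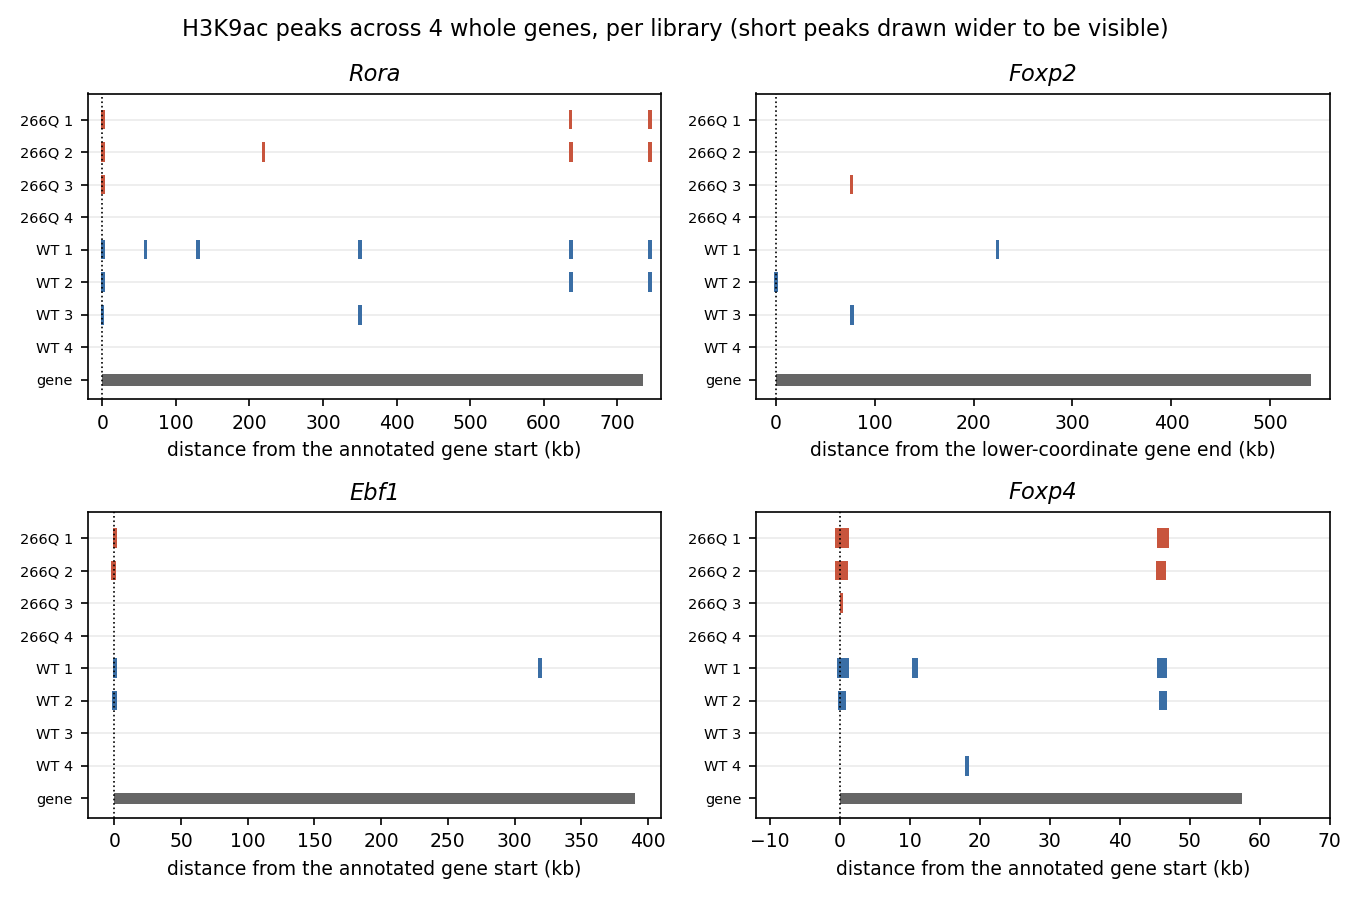
Peaks of each library (rows, 266Q above WT) along the whole of Rora, Foxp2, Ebf1 and Foxp4, by distance in kb from the annotated start, or for Foxp2 from its lower-coordinate end since the table gives no strand. Short peaks are drawn wider than they are so that they show, and the grey bar is the gene. Starts of Rora, Ebf1 and Foxp4 and 1 inner region each of Rora and Foxp4 recur between libraries, whereas most other inner peaks are in 1 library.

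The EBF genes encode helix-loop-helix factors that act in early neurons. Ebf1 (chromosome 11, 44618100 to 45008096) had covered lengths of 2046 and 1494 bp in 266Q replicates 1 and 2 and 2710 and 1324 bp in WT replicates 1 and 2, with none in replicates 3 and 4. The genotypes overlapped. The means were 885 ± 1046 bp in 266Q and 1008.5 ± 1295 bp in WT (SD, n = 4 each; exact permutation p = 1.00, adjusted p = 1.00).

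At the Ebf1 start alone, peaks covered 2046 and 1494 bp in 266Q and 1745 and 1324 bp in WT. In replicate 2 of both genotypes this region was split into 2 peaks, and in replicate 1 of both it was 1 peak. The best of them outscored 65.6% and 64.2% of the list in 266Q replicates 1 and 2, and 77.2% and 7.34% in WT replicates 1 and 2. WT replicate 1 had another peak of 965 bp at 319 to 320 kb, which no other list held.

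Ebf2, which is restricted to certain Purkinje subtypes in mouse (chromosome 14, 67233292 to 67430952), had 1 peak of 476 bp in WT replicate 1, inside the gene and within the lncRNA gene 4930438E09Rik. Its conditional exact p was 0.289 and its adjusted p 1.00. Ebf3 (chromosome 7, 137193671 to 137322805), Ptf1a (chromosome 2, 19445663 to 19447501) and Skor2 (chromosome 18, 76846733 to 76901064) had no peak in any library and so no test. In these 3 genes no region passed the authors' peak threshold, which gives no limit on a weaker mark.

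**Figure D5:**
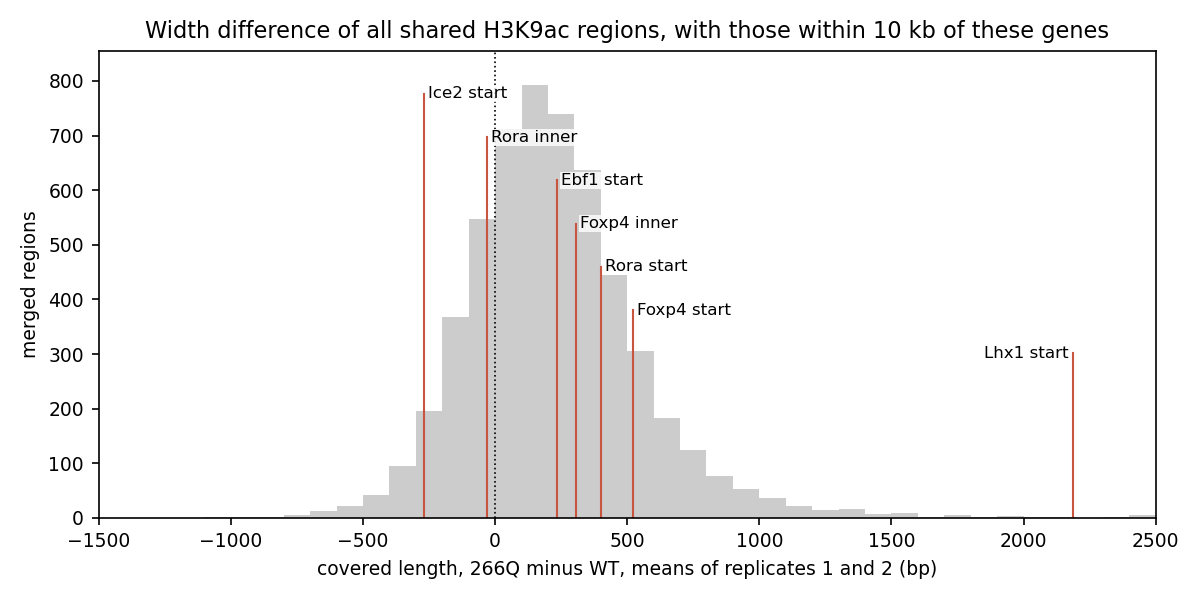
Difference in covered length, 266Q minus WT, between the means of replicates 1 and 2 (x axis, bp) for the 5484 merged regions held by all 4 of these lists (grey bars, number of regions, with values beyond the axis counted in the end bars). Red lines mark the 7 such regions within 10 kb of these genes. The Lhx1 start, at 2185 bp, lies beyond 99.9% of regions, and the others lie between -268.5 and 520.5 bp.

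Across the set, the windows held 57 peaks in 22 regions, 25 peaks in 266Q and 32 in WT. The whole lists held 10607, 11268, 5571 and 1266 peaks in 266Q replicates 1 to 4. In WT replicates 1 to 4 they held 11409, 7735, 3249 and 1571. Held by 4 or more libraries were 7 regions, and all 7 were in replicates 1 and 2 of both genotypes. Of these, 4 were wider in both 266Q than in both WT libraries (the starts of Rora, Lhx1 and Foxp4 and the inner region of Foxp4), 0 were the reverse and 3 overlapped, against 35.3% and 4.8% of all such regions. Per megabase covered in the library, 2 were wider in 266Q (the starts of Lhx1 and Foxp4) and 2 in WT, against 8.06% and 23% of all such regions. The median difference was 306.5 bp over the 7 regions and 194 bp over all 5484. At the Ice2 start in the Rora flank the difference was -268.5 bp with a ratio of means of 0.763, and 4.34% of the 5484 regions had a smaller difference and 1.86% a smaller ratio.

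Near these genes, regions in a single library were mostly WT. Of 11 such regions, 9 were in a WT and 2 in a 266Q list. Over the whole lists, peaks in no other list numbered 1376, 1751, 1188 and 373 in 266Q replicates 1 to 4. In WT replicates 1 to 4 they numbered 2312, 490, 624 and 457, so no such WT excess ran through all replicates. WT replicate 1 held 6 of the 11 regions, out of its 16 peaks near these genes, while 20.3% of its whole list was found in no other list. That share was 6.33% in WT replicate 2, which held 1 such peak of 11. In 266Q replicates 1 and 2 it was 13.0% and 15.5%, with 0 of 9 and 1 of 11 peaks near these genes. In 266Q replicate 3 it was 21.3%, with 1 of 5. In WT replicates 3 and 4 it was 19.2% and 29.1%, with 1 of 4 and 1 of 1. Without WT replicate 1 as a whole, its shared regions included, the mean difference, 266Q minus WT, was 1016 bp at Rora and 444 bp at Ebf1, against -221 and -123.5 bp with all libraries. WT replicate 2 was then the only long WT list. The difference also rose at Lhx1, from 1311 to 1884.5 bp, and at Foxp4, from 254.5 to 969.7 bp. The part of the lone peaks in these shifts was not tested.

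None of the listed paralogs and binding partners of these factors, nor of the listed regulators of the cerebellar GABAergic lineage, was called. Of 20 paralogs and binding partners (such as the LIM cofactor Ldb1, the LMO proteins, Foxp1 and the EBF partner Zfp423), 15 had a peak: 7 in more 266Q libraries, 1 in more WT libraries and 7 equally often. Within replicates 1 and 2, 7 of 14 were higher in 266Q without overlap and 0 in WT, against 32.2% and 2.91% of all genes. Lhx2, a LIM homeodomain paralog, had 1129 and 719 bp in 266Q replicates 1 and 2 and none in any WT library (conditional exact p = 0.416, adjusted p = 1.00). Of 15 regulators of the cerebellar GABAergic lineage, 10 had a peak: 4 in more 266Q libraries, 3 in more WT libraries and 3 equally often. Within replicates 1 and 2, 5 of 9 were higher in 266Q without overlap and 0 in WT, again against 32.2% and 2.91% of all genes. Per megabase covered, the shares of all genes were 17.5% and 12.6%, and the lists were not counted on that scale.

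Of 5 genes reported as RORα targets in mouse Purkinje cells, Pcp2, Pcp4 and Shh had no peak. Slc1a6, the glutamate transporter EAAT4, had 2135 and 2385 bp in 266Q replicates 1 and 2 and 1032 and 1108 bp in WT replicates 1 and 2. Itpr1, the inositol trisphosphate receptor, had 1167 and 905 bp in 266Q and none in WT (conditional exact p = 0.416, adjusted p = 1.00). Both were thus higher in 266Q replicates 1 and 2 without overlap, as were 32.2% of all genes. Slc1a6 was named after its values were seen.

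Among markers of other cells, 4 and 4 of 10 glial and vascular markers had a peak in 266Q replicates 1 and 2, against 3 and 1 in WT replicates 1 and 2. Aldh1l1 and Cx3cr1 were each in 2 266Q libraries and no WT library (conditional exact p = 0.416, adjusted p = 1.00). For interneuron markers the counts were 2 and 2 of 8 in 266Q and 2 and 3 in WT, and Gad1, Gad2 and Slc6a5 had no peak in any list. Among all protein-coding genes the shares with a peak were 50.2% and 48.4% in 266Q and 45.2% and 38.2% in WT. Sorcs3 was in 0 266Q and 2 WT libraries (conditional exact p = 0.0513, adjusted p = 1.00). Their part in the results for the lineage factors was not tested.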

How the data were processed

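H3K9ac was measured by chromatin immunoprecipitation and sequencing in 4 266Q and 4 WT cerebellar libraries, grouped by the sample titles. Each library has a deposited peak list that gives every peak a score. Per the submitters' processing notes, Bowtie2 and build mm10 were used, and per the file headers peaks were called with MACS in Galaxy, 1 list per library. Caller version, settings and any input control: not given in the sources used here. Throughout, the deposited score, the authors' own with no stated scale, is at least 50, and it served to rank or filter peaks inside 1 list. A longer list can come from deeper sequencing or a stronger antibody reaction, and depth is unknown. Of 52676 peaks, 15 began below 0, which was set to 0.

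Gene ends came from a RefSeq table of GRCm38.p6 (the assembly behind mm10), and strand and promoters from its promoter table, of which promoters of 6 of the 10 genes were used. Promoters of these genes on chromosome 18, which holds Skor2, were left out by choice. A peak counted for a gene if 1 bp lay in the gene or its 10 kb flanks. Overlapping peaks of all lists were merged into 19505 regions. Tests ran over all genes with Benjamini-Hochberg adjustment at 0.05. These were the conditional exact test of peak presence in 1 to 7 libraries, with detection odds per library from a Rasch model, and the exact permutation test of covered length over 70 assignments. Both were tested on simulated data. Same-numbered libraries of the 2 genotypes correlated at 0.543 to 0.889 in their deviations from the genotype means over 13147 genes. Libraries with other numbers but like list length correlated at 0.569 to 0.884. The data thus split the libraries by list length and do not single out pairs by replicate number. The alternatives were other windows, a stricter score, equal list length, 0.5 of a peak inside, scaling to the covered length of the library, full peak width, libraries left out, the replicate block and Fisher's exact test. The text names all 10 genes, and of each other list at most 2 genes with a difference of at least 2 libraries. Other list genes (examples, the 5 RORα targets and markers without a peak) were named outside this rule, after their values were seen. Members and lists were chosen with earlier results of these data known. Python 3.11.15, NumPy 2.4.6, SciPy 1.17.1, pandas 2.3.3 and Matplotlib 3.10.9 were used.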

Additional observations from a re-analysis of the deposited data

Results flagged for a closer look

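In all, 3 covered lengths stood apart from the other 3 libraries of their genotype, because those 3 had no peak. They are 148 bp at Lhx5 in 266Q replicate 3, 126 bp at Foxp2 in 266Q replicate 3 and 476 bp at Ebf2 in WT replicate 1. Each rests on 1 peak. Chance flags about 1 in 20 groups in this way, and a group with 3 values of 0 is always flagged.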

How the results depend on the processing

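Peak presence called 0 genes under every alternative run, and also 0 with the replicate number as a block, where 3 genes had an unadjusted p under 0.05. Covered length called 0 genes throughout, block included.

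With 1 library left out at a time, the mean difference in covered length (266Q minus WT) ran from -1064.5 to 1016 bp at Rora, 99.1 to 2361 bp at Lhx1, 0 to 49.3 bp at Lhx5, -561 to -269 bp at Foxp2, -349 to 969.7 bp at Foxp4, -510.5 to 444 bp at Ebf1 and -159 to 0 bp at Ebf2. The sign at Rora turned without 266Q replicate 3 or 4 or WT replicate 1 or 2, at Foxp4 without 266Q replicate 1 or 2 or WT replicate 3 or 4, and at Ebf1 without 266Q replicate 3 or 4 or WT replicate 1. Each such step also leaves the genotypes with unequal numbers of long or short lists. The part of that imbalance was not tested.

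With a score of 100 or more the difference was 229 bp at Ebf1, turned round, and 0 at Lhx5, Foxp2 and Ebf2. Genes higher without overlap in replicates 1 and 2 then numbered 2 of the set in 266Q and 0 in WT, with 3454 and 198 of all 9629 genes. With lists as short as the shortest, the difference was 0 at Rora, Lhx1, Lhx5, Foxp2, Ebf1 and Ebf2, and with replicates 1 and 2 cut to equal length 2 of the set were higher in 266Q and 0 in WT, with 3136 and 521 of 10921 genes. Scaled to the covered megabases of the library, the difference at Foxp4 was -83.9 bp per Mb. The largest value there, 565 bp per Mb, was the single low-scoring peak of WT replicate 4. Within replicates 1 and 2 on this scale, 2224 of all genes were higher in 266Q and 1602 in WT, and 0 and 4 of the set were. With no flank, 0 of the set were higher in 266Q and 1 (Foxp2) in WT, with 3024 and 491 of 10925 genes. Within replicates 1 and 2 the difference was 0 at Lhx5, and within replicates 3 and 4 it was 0 at Lhx1, Ebf1 and Ebf2. The causes were not tested. Leaving out flank peaks at ends of other genes was chosen after seeing the data and turned no direction. Read depth is unknown, so a gene without a peak may carry the mark below the authors' threshold.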
